A study of Rattus norvegicus with 5 samples.

Results

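Drd1 and Drd2 encode the D1 and D2 dopamine receptors, and their transcripts were followed here through 5 RNA sequencing libraries, each made from neurons cut by laser out of rat striatum. These 2 genes, of 32285 gene identifiers in the count tables, were picked by name. Neurons had been marked by a fluorescent tracer carried back from the region that their axons reach. Striatomesencephalic neurons send axons to the midbrain (2 libraries). Striatopallidal neurons send axons to the pallidum (3 libraries). The labels give no strain, sex, age, drug or lesion for either group, nor the number of cells and animals behind a library, so p-values measure only the spread between these libraries, which may be technical.

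Dopamine acts on the spiny projection neurons of the striatum through both receptors. The D1 receptor couples to the stimulatory G protein Golf and raises cyclic AMP, and it is the receptor known for the direct pathway to the midbrain. The D2 receptor couples to inhibitory G proteins, lowers cyclic AMP, and is known for the indirect pathway to the pallidum, and also occurs on cholinergic interneurons and on dopamine axons. In adult striatum most projection neurons carry mainly one of the receptors, which is why the pair is the usual test of which pathway a captured cell belongs to.

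Library totals ran from 20845178 to 24805062 counts. All 8 markers of spiny projection neurons that were looked for, among them Ppp1r1b, Bcl11b and Pde10a, were present in every library, with summed values of 11769 to 18871 CPM (a gene's reads relative to all reads of its library, on one common scale). Striatopallidal replicate 2 stood apart from the others. Its chi-square per degree of freedom against the other libraries was 418 to 483, where the other pairs gave 136 to 243, and none of the libraries repeats another within sampling noise.

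Drd1 transcripts were more abundant in both striatomesencephalic libraries than in any striatopallidal library. Read counts of Drd1 were 17956 and 24514 in striatomesencephalic replicates 1 and 2. They were 13875, 7724 and 9292 in striatopallidal replicates 1, 2 and 3. As CPM scaled by TMM (the trimmed mean of M values, which allows for differences in library composition), Drd1 stood at 825 and 1065 against 512, 403 and 390. The groups did not overlap, as was so for 10.4% of all genes in this direction, and striatopallidal replicate 1 was the library nearest to the other group. The mean was 945 ± 170 CPM (SD, n = 2) in the former and 435 ± 66.9 CPM (SD, n = 3) in the latter group, a 2.17-fold difference that is larger than the spread within either group. Striatopallidal libraries thus held Drd1 RNA at 46.0% of the striatomesencephalic mean.

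Drd2 transcripts showed the opposite order and a wider separation. Read counts of Drd2 were 3005 and 2487 in striatomesencephalic replicates 1 and 2. They were 14441, 9688 and 11739 in striatopallidal replicates 1, 2 and 3. In TMM-scaled CPM these were 138 and 108 against 533, 505 and 493. All 3 striatopallidal values lay within 40.0 CPM of each other, and the lowest of them was 355 CPM above the nearest striatomesencephalic value. Groups were separate in this direction for 11.2% of all genes. The mean was 123 ± 21.2 CPM (SD, n = 2) in the former and 510 ± 20.5 CPM (SD, n = 3) in the latter group, a 4.15-fold difference. Drd2 RNA in striatomesencephalic libraries was at 24.1% of the striatopallidal mean, which is a smaller remainder than that of Drd1 in striatopallidal libraries, a difference that was not tested. In these libraries of captured material, fewer neurons of a type and less RNA per neuron cannot be told apart.

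**Figure D1:**
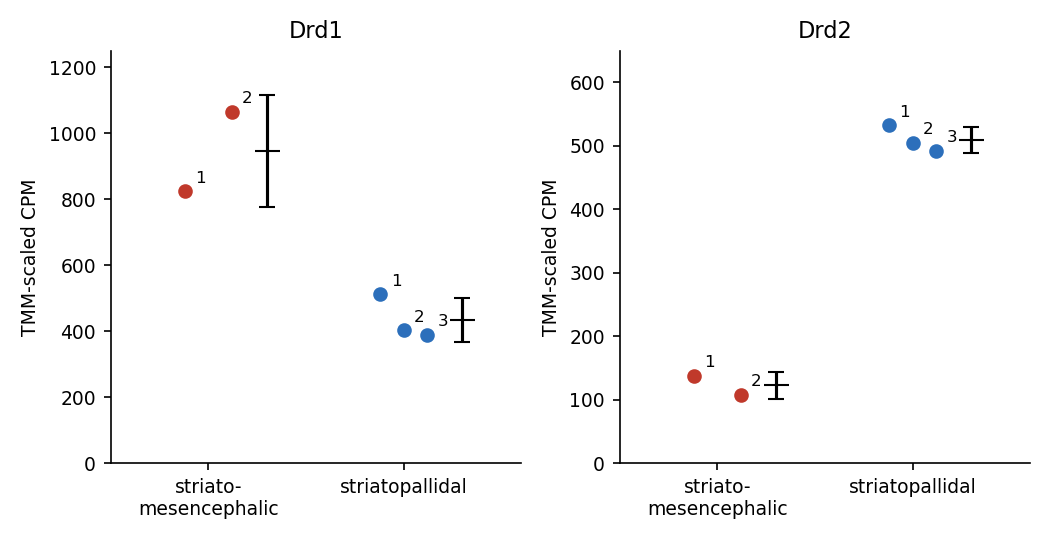
Drd1 (left) and Drd2 (right) in TMM-scaled CPM for each library, with the replicate number beside each point and the group mean ± SD as a bar (n = 2 striatomesencephalic, n = 3 striatopallidal). Drd1 is at 825 and 1065 CPM in striatomesencephalic libraries, above all striatopallidal points, and Drd2 is at 138 and 108 CPM there, below all striatopallidal points.

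The scaling between libraries touched the striatopallidal spread of both receptors. In CPM of the plain library totals, Drd1 stood at 582, 311 and 415 in striatopallidal replicates 1, 2 and 3, and Drd2 at 606, 391 and 524, so both receptors followed the same order of libraries. The TMM factor of replicate 2 was 0.774 against 1.02 to 1.14 in the other 4 libraries, and after scaling the 3 Drd2 values lay close together. Striatomesencephalic libraries had no such shared order: replicate 2 was higher for Drd1 and lower for Drd2. On plain totals the groups of both genes were still separate, at 861 and 1084 CPM for Drd1 and 144 and 110 CPM for Drd2 in striatomesencephalic libraries.

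Tested across all genes, the log2 fold change (striatomesencephalic minus striatopallidal) was 1.12 ± 0.31 (SE) for Drd1 and -2.05 ± 0.35 (SE) for Drd2. Neither gene passed the threshold of 0.05 in edgeR's quasi-likelihood test, where both had an adjusted p of 0.779 over 13811 genes. The unadjusted p was 0.00847 for Drd1 and 0.000649 for Drd2, which ranked 117 and 9 among all genes. No gene passed in either direction (0%), although 839 genes had an unadjusted p under 0.05, and limma voom called 0 genes as well. DESeq2 called 226 genes, 1.64% of those tested, and the exact test of edgeR called 43 genes, 0.311%. DESeq2 called Drd2 (adjusted p = 0.00532), which was among the 1.01% of genes that it called lower in striatomesencephalic libraries, and did not call Drd1 (adjusted p = 0.348). The range of adjusted p over all alternatives was 0.348 to 1 for Drd1 and 0.00532 to 1 for Drd2. The exact test of edgeR gave 0.652 for Drd1 and 0.186 for Drd2, as adjusted p-values.

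The size of the differences was set beside that of all genes. A fold change at least as large in size as that of Drd1 was seen in 31.4% of all genes, and as that of Drd2 in 13.6%. Of 217 genes with a mean log2 level at or above that of Drd1, 13 had a fold change at least as large in size, Drd1 included. Of 602 genes at or above the level of Drd2, 9 did, Drd2 included. The standard errors of both receptors were small beside the median of 0.92 over all genes, a median not matched for level. A standard error at or below that of Drd1 was found in 106 genes and at or below that of Drd2 in 293 genes, each receptor included.

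**Figure D2:**
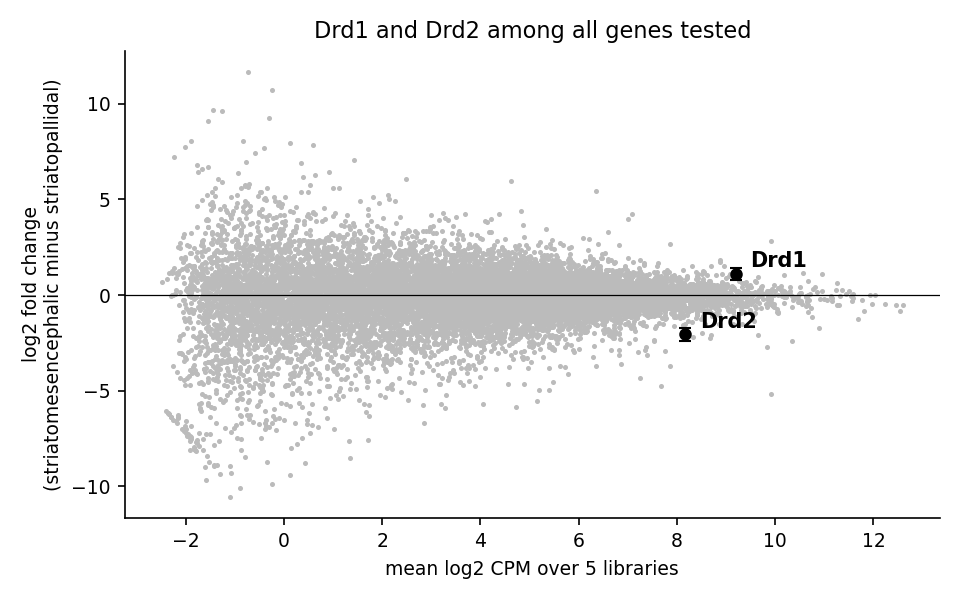
Mean log2 CPM over the 5 libraries (horizontal) against the log2 fold change, striatomesencephalic minus striatopallidal (vertical), for all 13811 genes tested (grey points), with Drd1 and Drd2 in black and their SE as bars. Drd1 at 1.12 and Drd2 at -2.05 lie near the edges of the grey cloud at their own level, while genes of low level spread much wider.

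In the authors' deposited table, which is coded striatopallidal minus striatomesencephalic, Drd1 had a log2 fold change of -1.24 (p = 0.00466) and Drd2 of 1.96 (p = 0.00158). In the authors' deposited table both had an adjusted p of 0.927, and they ranked 45 and 17 by p among 12054 genes. No gene in the authors' deposited table had an adjusted p under 0.05.

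The ratio of the receptors within a library needs no scaling between libraries. Drd1 reads outnumbered Drd2 reads in both striatomesencephalic libraries, 5.98-fold in replicate 1 and 9.86-fold in replicate 2. In striatopallidal replicates 1, 2 and 3 the ratio of Drd1 to Drd2 reads was 0.961, 0.797 and 0.792. Striatopallidal libraries thus held nearly as many Drd1 as Drd2 reads, and their 3 ratios lay close together. These are ratios of read counts that are not corrected for transcript length, so they do not say which receptor had more molecules, but their change from library to library does not depend on length.

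As a share of the reads of both receptors, Drd1 took 85.7% in striatomesencephalic replicate 1 (95% exact binomial interval 85.2 to 86.1%) and 90.8% in replicate 2 (90.4 to 91.1%). It took 49.0% (48.4 to 49.6%), 44.4% (43.6 to 45.1%) and 44.2% (43.5 to 44.9%) in striatopallidal replicates 1, 2 and 3. These intervals cover the counting error of reads only and treat each read as independent. RNA was amplified and reads carried no molecular identifiers, so the error from the number of starting molecules is not covered. The intervals of the 2 striatomesencephalic libraries did not overlap. Whether those libraries differed by more than the counting error of molecules cannot be told from these intervals. The mean share was 88.2 ± 3.62% (SD, n = 2) against 45.8 ± 2.73% (SD, n = 3).

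On the log2 scale the ratio of Drd1 to Drd2 averaged 2.94 ± 0.51 (SD, n = 2) in the striatomesencephalic libraries. It averaged -0.24 ± 0.16 (SD, n = 3) in the striatopallidal ones. The difference was 3.18, or a 9.07-fold change of the ratio. The nearest libraries of the groups were 2.64 apart, which exceeds the range of 0.72 within striatomesencephalic and of 0.28 within striatopallidal libraries. An exact two-sided permutation test gave p = 0.1, the smallest value that its 10 arrangements of 2 and 3 libraries can give, so this design cannot reach the threshold. Leaving out any 1 library kept the difference between 2.82 and 3.54.

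Ratios of the neuropeptide genes of the same pathways also separated the groups. Tac1 and Pdyn encode the precursors of substance P and dynorphin, peptides of direct pathway neurons, and Penk encodes the precursor of enkephalin, a peptide of indirect pathway neurons. The log2 ratio of Tac1 to Penk was 3.11 and 2.97 in striatomesencephalic and -0.70, -0.26 and -1.48 in striatopallidal libraries. The log2 ratio of Pdyn to Penk was 2.20 and 1.36 against -2.51, -2.73 and -3.13. Striatomesencephalic replicate 2 had the higher ratio for the receptors and the lower one for both peptide pairs, so the libraries of that group did not keep 1 order across the pairs. These ratios come from the same libraries, and both peptide pairs share Penk, so they are not independent.

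**Figure D3:**
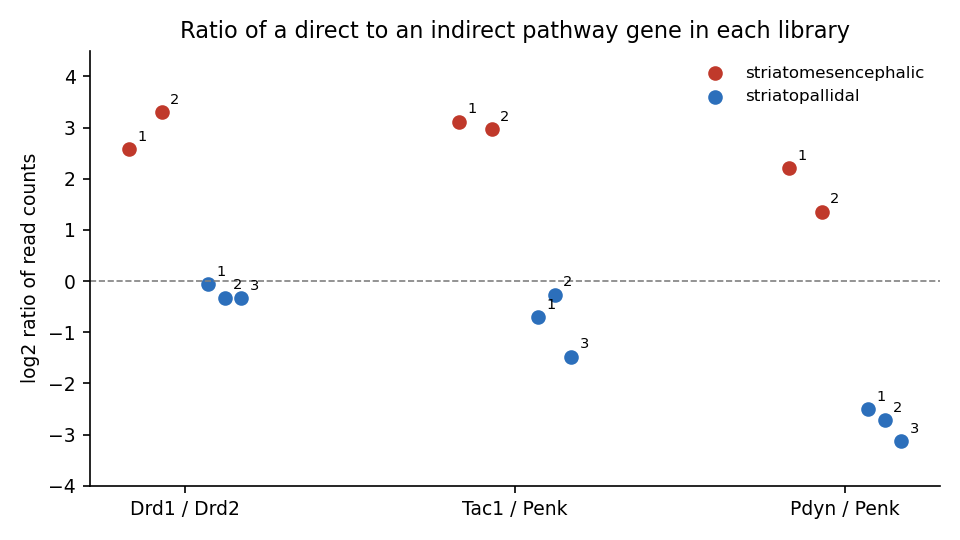
Log2 ratio of read counts of a direct pathway gene to an indirect pathway gene in each library, with replicate numbers beside the points (red striatomesencephalic, blue striatopallidal) and a dashed line at equal read counts. For Drd1 to Drd2 the striatopallidal libraries lie between -0.34 and -0.06, just under the line, while for Pdyn to Penk they lie between -3.13 and -2.51.

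Other genes known for the 2 pathways were compared by how much of their RNA remained in the other group. All 7 direct pathway genes tested (Tac1, Pdyn, Chrm4, Isl1, Ebf1, Slc35d3, Eya1) had positive log2 fold changes with a median of 1.13, against a median of -0.06 over all genes tested. None passed the threshold in edgeR's quasi-likelihood test, where 2 of the 7 had an unadjusted p under 0.05 (839 of all 13811 genes). The groups did not overlap for 5 of the 7 (10.4% of all genes). The muscarinic receptor gene Chrm4 turned to -0.50 without striatomesencephalic replicate 2. Striatopallidal means, as a percent of striatomesencephalic means, were 45.6% for Tac1, close to the 46.0% of Drd1, and 27.6% for Pdyn. They were 24.3% for the transcription factor gene Isl1, 65.3% for Chrm4, 64.2% for Ebf1, 62.3% for Slc35d3 and 18.6% for Eya1. The groups of Chrm4 and Ebf1 overlapped. Isl1 and Eya1 averaged unlike striatopallidal libraries, at 16.4, 18.4 and 2.69 TMM-scaled CPM for Isl1 and 11.5, 0.365 and 2.18 for Eya1. All 5 indirect pathway genes tested (Penk, Adora2a, Gpr6, Ptprm, Grik3) had negative values with a median of -1.09, and none passed. In the same test 4 of the 5 had an unadjusted p under 0.05 (839 of all 13811 genes). The groups did not overlap for 4 (11.2% of all genes). Striatomesencephalic means, as a percent of striatopallidal means, were 15.5% for Penk and 29.8% for the adenosine receptor gene Adora2a, beside the 24.1% of Drd2. They were 47.7% for Gpr6 and 47.1% for Ptprm, so more RNA of Gpr6 and Ptprm remained. The 47.3% of Grik3 averaged unlike striatomesencephalic libraries, at 44.6 and 5.69 TMM-scaled CPM, and its groups overlapped. The log2 fold change of Grik3 was -3.22 without striatomesencephalic replicate 1 and -0.25 without striatomesencephalic replicate 2. Gpr52 and Sp9 could not be matched by symbol.

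RNA of other cells was present beside that of projection neurons. Marker values are given as CPM of the plain library totals, without TMM scaling. Markers of oligodendrocytes (5 of 5 matched) summed to 4317 to 6115 CPM over all libraries, and the groups overlapped. Markers of astrocytes (5 of 5 matched) summed to 577 and 317 CPM in striatomesencephalic and to 507 to 662 CPM in striatopallidal libraries. Within this list the directions differed. Gfap, the filament protein gene of astrocytes, stood at 11.5 and 3.85 CPM in striatomesencephalic and at 243, 175 and 87.7 CPM in striatopallidal libraries, and the water channel gene Aqp4 at 53.0 and 30.5 CPM against 62.3 to 89.4 CPM, both in the direction of Drd2. Aldh1l1 stood at 1.87 and 7.83 CPM against 0.312 to 1.55 CPM, in the direction of Drd1, while Gja1 overlapped. Slc1a2 stood at 37.6 and 63.9 CPM against 25.4 to 36.4 CPM, also in the direction of Drd1 but by a narrow margin. Its 36.4 CPM was in striatopallidal replicate 2, where the TMM factor of 0.774 raises scaled values, so its groups overlap after TMM scaling. Cholinergic interneurons, which also carry Drd2, had 3 of 5 markers matched, with sums of 39.0 and 16.5 CPM against 7.81 to 23.6 CPM. Of these Chat, the acetylcholine synthesis gene, stood at 0.672 and 1.28 CPM in striatomesencephalic and at 2.10, 19.2 and 4.33 CPM in striatopallidal libraries, and Lhx8 at 22.4 and 7.21 CPM against 1.61 to 2.22 CPM. Slc5a7, the choline transporter gene, had 333 and 181 counts against 103, 55 and 42 counts, so 2 of the 3 markers were higher in both striatomesencephalic libraries and Chat was lower. Of other interneuron markers 3 of 6 were matched (44.1 and 73.2 CPM against 41.2 to 122 CPM), of microglia 2 of 5 (25.4 and 16.1 CPM against 9.35 to 45.5 CPM) and of vascular cells 2 of 4 (19.8 and 41.1 CPM against 44.6 to 76.3 CPM). Markers of cortical glutamatergic neurons could not be matched. The part of other cells, or of neurons of the other pathway, in the Drd1 and Drd2 values was not tested.

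Apart from the receptor pair, dopamine signalling genes lay on both sides of 0. A list of 40 genes covered other receptors, dopamine handling, G proteins, effectors, desensitisation and receptor-interacting proteins, and 33 of them were matched and tested. None passed in either direction in edgeR's quasi-likelihood test (0% of all genes did), and none was called by DESeq2, limma voom or the exact test of edgeR. In the quasi-likelihood test 3 of the 33 had an unadjusted p under 0.05, beside 839 of all 13811 genes. Of the 33, 21 had positive and 12 negative log2 fold changes, with a median of 0.19. Over all genes tested 47.4% were positive and the median was -0.06. The groups did not overlap for 8 of 33 members, or 24.2%, beside 21.6% of all genes. That share is near the background, so it is not a result about the list.

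Among the other dopamine receptors only Drd3, the D2-like receptor of the ventral striatum, was matched. It had 649 and 148 counts in striatomesencephalic and 10, 1 and 589 counts in striatopallidal libraries. The libraries of each group thus ranged from low to high, and the log2 fold change of 1.11 ± 1.99 (SE) turned to -0.38 without striatomesencephalic replicate 1 and was 6.36 without striatopallidal replicate 3. Drd4 and Drd5 could not be matched by symbol.

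Of the genes that make, store and break down dopamine, 5 of 7 were tested. Ddc, the decarboxylase that makes dopamine from its precursor, stood at 9.65 and 15.4 TMM-scaled CPM in striatomesencephalic and at 2.95, 0.574 and 0.378 CPM in striatopallidal libraries. Its log2 fold change was 3.26 ± 1.20 (SE). Slc18a2, the vesicular monoamine transporter, stood at 63.1 and 67.6 CPM against 52.8, 44.4 and 43.8 CPM, which is 0.48 ± 0.50 (SE) on the log2 scale. The groups were separate for these 2 of the 5 genes, by a narrow margin for Slc18a2, and neither passed the test. Over all genes 21.6% were separate, and a list of 5 is too short to be told from that share.

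Among the G proteins and effectors downstream of the receptors, the groups were separate for 3 of 17 genes, or 17.6%, a share near the 21.6% of all genes. Gnal, which encodes the alpha subunit of Golf, through which D1 receptors act in the striatum, differed by 0.02 ± 0.32 (SE) on the log2 scale, and its sign changed with scaling and with the library left out. Adcy5, the main adenylyl cyclase of the striatum, had 0.38 ± 0.43 (SE), and Ppp1r1b, which encodes the phosphatase inhibitor DARPP-32, had -0.05 ± 0.28 (SE). Adcy5 was 0.10 without striatopallidal replicate 2 and 0.78 without striatopallidal replicate 3, and Ppp1r1b was -0.25 without striatomesencephalic replicate 2 and 0.13 without striatomesencephalic replicate 1. These 3 genes were named for their place in the pathway after their values were seen. Gnao1, a Go alpha subunit that D2 receptors can use, stood at 273 and 285 CPM in striatomesencephalic and at 490, 355 and 393 CPM in striatopallidal libraries. Kcnj3, a subunit of the potassium channel that Gi-coupled receptors open, stood at 22.9 and 19.3 CPM against 69.5, 168 and 40.7 CPM. Its log2 fold change of -2.14 ± 0.75 (SE) was -1.39 without striatopallidal replicate 2. Prkaca, a catalytic subunit of protein kinase A, stood at 43.6 and 36.8 CPM against 26.0, 28.9 and 20.9 CPM. Groups were separate for Gnao1, Kcnj3 and Prkaca, and none of them passed.

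The member with the smallest p of the list was among the genes listed as receptor-interacting proteins, a placing that was not tested here. Caly, which encodes the neuronal vesicular protein calcyon, stood at 326 and 361 CPM in striatomesencephalic and at 921, 894 and 1101 CPM in striatopallidal libraries. Its log2 fold change was -1.50 ± 0.31 (SE), where the unadjusted p was 0.00169 and the adjusted p 0.779 in edgeR's quasi-likelihood test. Its value stayed between -1.58 and -1.40 when any 1 library was left out. Arrb1, a beta-arrestin that binds phosphorylated receptors, stood at 207 and 160 CPM against 84.0, 125 and 130 CPM. Grk6, a kinase that phosphorylates such receptors, stood at 17.7 and 15.3 CPM against 28.6, 21.3 and 69.2 CPM. For these 3 genes the groups were separate. The Grk6 value of -1.27 ± 0.77 (SE) on the log2 scale was -0.60 without striatopallidal replicate 3. Separation was the reason for naming these genes. It was seen in 2 of 7 desensitisation genes and 1 of 3 receptor-interacting genes, beside 21.6% of all genes. Lists this short cannot be told from that share.

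**Figure D4:**
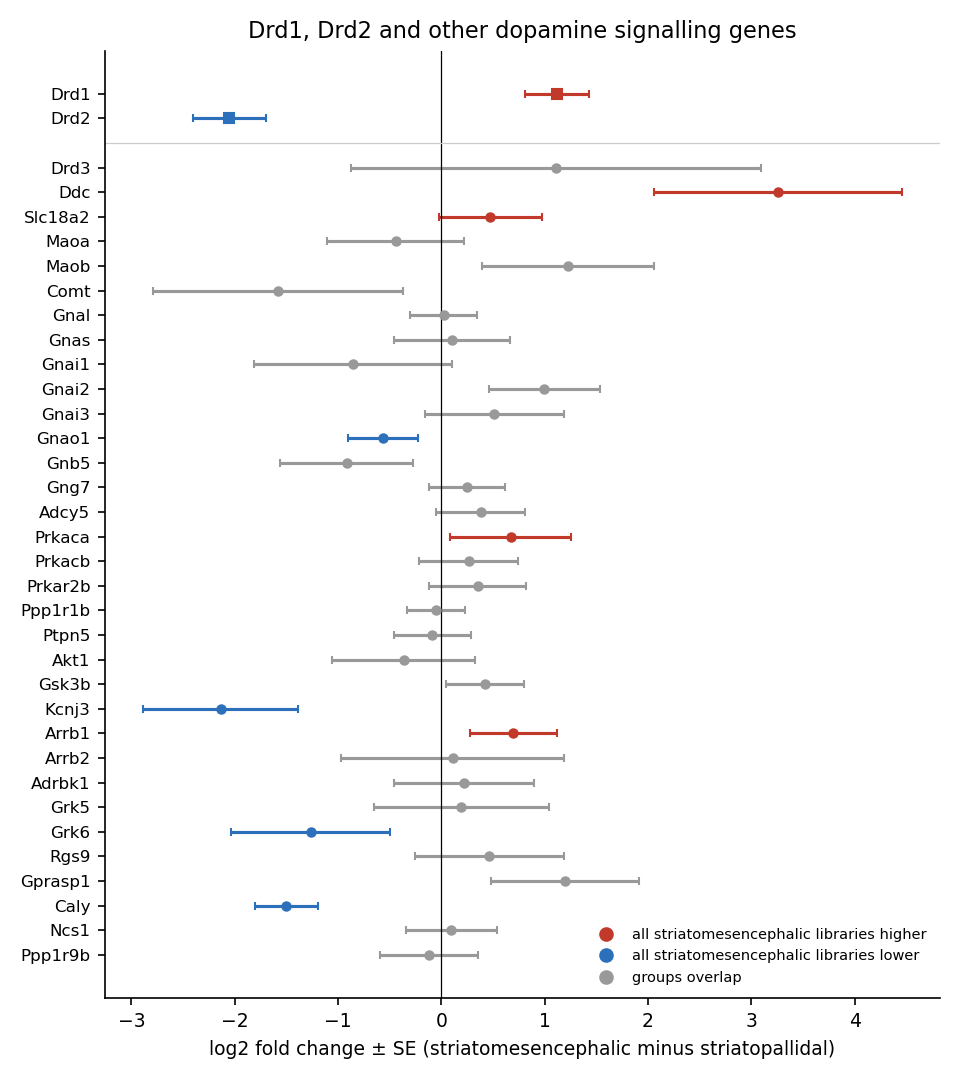
Log2 fold change ± SE, striatomesencephalic minus striatopallidal, for Drd1 and Drd2 (squares) and the 33 tested genes of dopamine signalling (circles), coloured by whether the libraries of the groups overlap in TMM-scaled CPM. Drd1 at 1.12 and Drd2 at -2.05 have short bars, Ddc at 3.26 and Drd3 at 1.11 long ones, and 12 of the 33 circles lie below 0.

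The genes whose profile over the 5 libraries was most like that of each receptor were sought among 8641 other genes with a symbol and a mean of at least 10 CPM. Likeness was the root mean square difference between log2 CPM profiles, each centred on its own mean. For Drd1 the nearest 5 were Clasp1, a microtubule plus-end protein gene (0.07), Abca3, a lipid transporter gene (0.09), the zinc finger gene Zfp786 (0.09), Gtf3c2, a subunit of the RNA polymerase III factor TFIIIC (0.11), and Hadhb, a mitochondrial enzyme of fatty acid oxidation (0.12). Clasp1 stood at 74.6 and 98.0 CPM in striatomesencephalic and at 51.5, 36.4 and 38.8 CPM in striatopallidal libraries. For Drd2 they were Scfd2, a Sec1 family gene (0.07), the zinc finger gene Plag1 (0.13), Txnl4a, a spliceosome component gene (0.19), Rgs4, a regulator of G protein signalling (0.20), and Hs3st1, a heparan sulfate sulfotransferase gene (0.21). Rgs4 stood at 126 and 136 CPM against 608, 508 and 655 CPM, which is -2.17 ± 0.35 (SE) on the log2 scale. All of these genes were picked for such profiles, so their differences are not separate results. Profiles within 0.5 of that of Drd1 belonged to 826 genes, and within 0.5 of that of Drd2 to 75 genes. This distance is not scaled to the size of a profile, and the Drd1 profile varied less between libraries. A nearly flat gene therefore lies closer to Drd1 than to Drd2, so these counts do not say which pattern was more common.

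**Figure D5:**
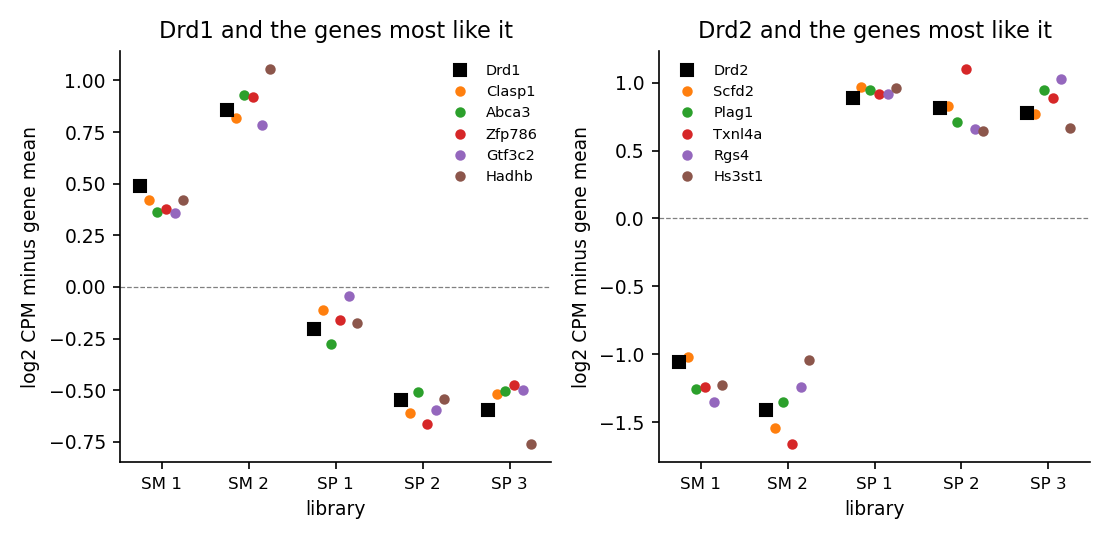
Log2 CPM minus the mean of the gene in each library (SM striatomesencephalic, SP striatopallidal, with the replicate number) for Drd1 (left, squares), Drd2 (right, squares) and the 5 genes nearest to each (circles). Points of the Drd1 panel are above 0 in both SM libraries and below 0 in all SP libraries, and those of the Drd2 panel the reverse. The circles were picked for their likeness to the receptor, so their side of 0 follows from that choice.

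Genes beside the receptors on the chromosome showed mixed patterns, and few could be matched. The order of genes was taken from the RefSeq annotation of assembly GRCr8, which is not the build of the counts. Of the 3 named protein-coding genes on each side of Drd1, only Sfxn1, a mitochondrial serine transporter gene, was matched. Sfxn1 had 5982 and 5345 counts in striatomesencephalic and 4125, 23888 and 2716 counts in striatopallidal libraries, so its log2 fold change of -0.99 was 0.92 without striatopallidal replicate 2. On the side of Drd2 that holds Ankk1, Ttc12 and Ncam1, the kinase gene Ankk1 had 244 and 1398 counts against 1025, 137 and 594 counts, and its groups overlapped. The log2 fold change of Ankk1, 0.63, was -1.06 without striatomesencephalic replicate 2 and 1.38 without striatomesencephalic replicate 1. Ttc12, a gene of cilia, had 24 and 132 counts against 6, 0 and 1 counts, the opposite direction to Drd2. The counts of 0 and 1 lay below the floor of 3, and the striatomesencephalic libraries were unlike, at 1.10 and 5.73 TMM-scaled CPM. The size of its log2 fold change, 5.15 ± 1.70 (SE), is therefore uncertain. The adhesion gene Ncam1 had a log2 fold change of -0.45 ± 0.43 (SE) with overlapping groups, which was -0.11 without striatopallidal replicate 2 and -0.71 without striatopallidal replicate 1. Zw10, on the other side, had 103 and 710 counts against 953, 754 and 1365 counts. Its log2 fold change of -1.30 ± 0.90 (SE), in the direction of Drd2, was -0.51 without striatomesencephalic replicate 1 and -3.21 without striatomesencephalic replicate 2. None of the 5 matched neighbours passed in edgeR's quasi-likelihood test. No source used here says whether reads were counted by strand, so reads of overlapping genes on opposite strands could not be told apart.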

How the data were processed

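Per the labels' protocols, cells captured by laser were lysed in TRIzol, polyadenylated RNA was amplified with a single-cell kit (REPLI-g), and GeneRead libraries were prepared. Tools named, per the submitters' processing notes, are TopHat2, HTSeq, limma and edgeR, with build Rnor_6.0, and their versions and roles are unknown here. The authors deposited raw counts per Ensembl gene for each library, which were the input of every test. A deposited signal table holds counts over the factor that the labels give (within 0.00368 for Drd1 and Drd2), and a second deposited signal table holds CPM. The authors' deposited comparison gives log2 fold changes, p-values and scores (moderated t and log-odds) for 12054 genes, and supplied the gene symbols.

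The main test was edgeR 4.0.16 under R 4.3.3 (filterByExpr, TMM, glmQLFit and glmQLFTest) over all 5 libraries, with Benjamini-Hochberg adjustment over 13811 genes. DESeq2 1.42.0, limma 3.58.1 (voom), other scalings, no filter, a replicate block and fits without each library were alternatives. A count of 3, taken as the floor, is 0.121 to 0.144 CPM. Log2 profiles used a prior count of 2. A standard error is the size of a fold change over the root of its F value. Named genes were the receptors, members of the dopamine list whose groups did not overlap, the 5 nearest profiles, chromosomal neighbours and pathway partners. The genes, lists and tests were chosen with earlier results of these data known.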

Additional observations from a re-analysis of the deposited data

How the results depend on the processing

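Over 14 alternatives the log2 fold change of Drd1 ran from 0.92 to 1.29 and that of Drd2 from -2.24 to -1.89, with both extremes set by leaving out a striatomesencephalic library, and neither changed direction. Drd2 passed the threshold with DESeq2 alone, at -2.06 (adjusted p = 0.00532). Genes called over the whole table numbered 226 with DESeq2 (87 higher, 139 lower in striatomesencephalic libraries) and 43 with the exact test of edgeR, against 0 in the quasi-likelihood test and in every other alternative, and the cause was not tested. No alternative called a member of the dopamine list. The difference in the log2 ratio of Drd1 to Drd2 ran from 2.82 to 3.54 over 9 alternatives. Both extremes were set by leaving out a striatomesencephalic library. Not all of the 9 could differ, since the deposited CPM leaves a ratio within a library unchanged. The replicate block rests on replicates 1 and 2 and leaves 1 degree of freedom. With it the ratio difference was 3.13, necessarily the same as without striatopallidal replicate 3. In the block fit Drd1 had 1.05 and Drd2 -2.09, with 0 genes called. The labels do not say that equal numbers mark a shared animal or batch, so the numbers were not taken to pair the libraries. Deviations of same-numbered libraries from their group means correlated at -0.02 and -0.03 across genes. With only 2 striatomesencephalic libraries, their deviations mirror each other, so these correlations can hardly show whether libraries were paired. Without either striatomesencephalic library, the lone one is assumed to vary like the other group.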

Other observations

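The summed level of the receptors varied less between the groups than either receptor did. Changes in opposite directions offset each other in such a sum, and reads were not corrected for transcript length. The sum is therefore no measure of total receptor RNA. Drd1 and Drd2 together stood at 963 and 1173 TMM-scaled CPM in striatomesencephalic replicates 1 and 2 and at 1044, 908 and 882 CPM in striatopallidal replicates 1, 2 and 3, so the groups overlapped. A receptor pair of the same pathways, the muscarinic gene Chrm4 and the adenosine gene Adora2a, gave log2 ratios of read counts of -6.00 and -4.78 in striatomesencephalic and -7.34, -7.70 and -7.41 in striatopallidal libraries. The groups of that pair were also separate, with a difference of 2.09. The spread within striatomesencephalic libraries was 0.86 (SD, n = 2), against 0.51 for Drd1 to Drd2. Taken alone, Adora2a was separate, but Chrm4 overlapped. Chrm4 stood at 12.4 and 41.2 TMM-scaled CPM in striatomesencephalic and at 13.9, 22.9 and 15.6 CPM in striatopallidal libraries.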
